A study of Mus musculus with 10 samples.

Results

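Lesional skin of mice labelled IL-17C+KO was compared with lesional skin of mice labelled IL-17C+. Members of the comparison were chosen by their titles, and they are 5 of the 10 RNA sequencing libraries of the series: 2 labelled IL-17C+KO (mice 2392 and 2465) and 3 labelled IL-17C+ (mice 2237, 2275 and 2296), each from a different mouse. Both groups are C57Bl/6 mice with a transgene for interleukin-17C (IL-17C) and with lesions that resemble psoriasis, and the IL-17C+KO mice also lack interleukin-6 (Il6) according to the series title. Each biopsy was dorsal skin, and the mice were 10 or 14 weeks old. The labels do not tie an age to a mouse, so age and genotype cannot be told apart. For the promoter of the transgene and the design of the Il6 deletion the sources used here give nothing. The lesional libraries held 31072491, 23927869 and 26288208 counts for IL-17C+ mice 2237, 2275 and 2296, and 25627124 and 21483189 counts for IL-17C+KO mice 2392 and 2465. The other 5 libraries, uninvolved skin of the same mice, are used only where a lesional value is set beside them.

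IL-17C is an epithelial cytokine that acts on keratinocytes through a receptor that contains IL-17RE and IL-17RA, and it induces chemokines, antimicrobial peptides and cytokines there. IL-6 belongs to a family of cytokines that share the receptor chain gp130 (Il6st) and signal through JAK kinases to the transcription factor STAT3, whose feedback inhibitor is SOCS3. Psoriasis lesions combine thickened epidermis with neutrophils, T cells, macrophages, dendritic cells and dilated vessels, and STAT3 activity in keratinocytes is a known part of the disease.

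Counts of the targeted gene were higher under the knockout label. For Il6, at 30013114 to 30019981 on chromosome 5 of GRCm38, lesions labelled IL-17C+ gave 26, 18 and 69 counts (mice 2237, 2275 and 2296), or 0.804, 0.726 and 2.77 CPM (the count scaled to the library total). In the libraries labelled IL-17C+KO it had 315 and 300 counts (mice 2392 and 2465), or 12.4 and 14.1 CPM. Every lesional library labelled IL-17C+KO was above every lesional library labelled IL-17C+, with a log2 difference of 3.21 ± 0.64 (SE, 2 against 3 mice, edgeR, adjusted p = 0.555). A count over the whole gene does not show which exons were read, so whether a disrupted allele was transcribed was not tested. All groups are therefore named by their labels, and every direction below rests on them. Il17c (chromosome 8, 122422020 to 122423639), which the labels give as the transgene, had 10890, 11260 and 12780 CPM in IL-17C+ mice 2237, 2275 and 2296 and 2456 and 11470 CPM in IL-17C+KO mice 2392 and 2465. Mouse 2392 was thus the low one for the transgene, and mouse 2465 lay inside the range of the IL-17C+ mice. Counts cannot separate the transgene from the mouse's own Il17c.

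Differences are given as the log2 of IL-17C+KO over IL-17C+ with a standard error from edgeR's quasi-likelihood fit, and values per library are CPM scaled by TMM. No gene passed a false discovery rate (FDR) of 0.05 in this fit: 0 of 15691 genes (0%), with 1145 genes at an unadjusted p under 0.05. Of these, 748 genes were higher in IL-17C+KO skin (4.77%) and 397 lower (2.53%). limma-voom also called 0 genes, while DESeq2 called 213, of which 163 were higher (1.04% of the genes it tested) and 50 lower (0.319%). The smallest adjusted p of edgeR was 0.069, for the hyaluronan synthase Has1. The number of genes at an unadjusted p under 0.05 fell to 519 without IL-17C+ mouse 2237 (387 higher, 132 lower) and to 672 without 2275 (503 and 169), and was 1995 without 2296 (1075 and 920). Without IL-17C+KO mouse 2392 it was 1584 (746 higher and 838 lower), so the balance of the 2 directions turned, and without 2465 it was 1454 (804 and 650). Because 2 mice were set against 3, the groups were also compared by whether their values overlap: 2086 genes (13.3%) were higher in both IL-17C+KO libraries than in all 3 IL-17C+ libraries, and 1808 genes (11.5%) were lower in both. These shares are the background for each list below, whose members are given by their counts and by their median beside the median of all genes, which was 0.01. Words such as higher and lower below describe values, since no edgeR call was made.

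Marker lists of several tissues had different summed levels in the 2 IL-17C+KO lesions. Summed over the fixed marker lists, adipocyte genes came to 10230 CPM in mouse 2392 and 1455 CPM in mouse 2465, on both sides of the 4047 to 4849 CPM of the IL-17C+ mice. Sebaceous gland genes showed the same order, with 11100 and 2059 CPM against 3971 to 6254 CPM. That list includes lipid genes not limited to the gland, such as Fasn, Acaca and Pparg. Whether the 2 lists report separate tissues was not tested. Fibroblast and collagen genes were the reverse, with 12590 CPM in mouse 2392 and 41190 CPM in mouse 2465 against 8698 to 19010 CPM. Basal and spinous keratinocyte genes, the main cell type of epidermis, were abundant in all 5 libraries, at 28170 and 25550 CPM against 28090 to 34140 CPM. Neutrophil genes came to 624 and 618 CPM in the IL-17C+KO libraries, between 112 and 151 CPM in IL-17C+ mice 2237 and 2275 and 832 CPM in mouse 2296. In whole skin, fewer cells of a type and less RNA per cell cannot be told apart, and the part that tissue make-up has in any difference below was not tested.

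**Figure D1:**
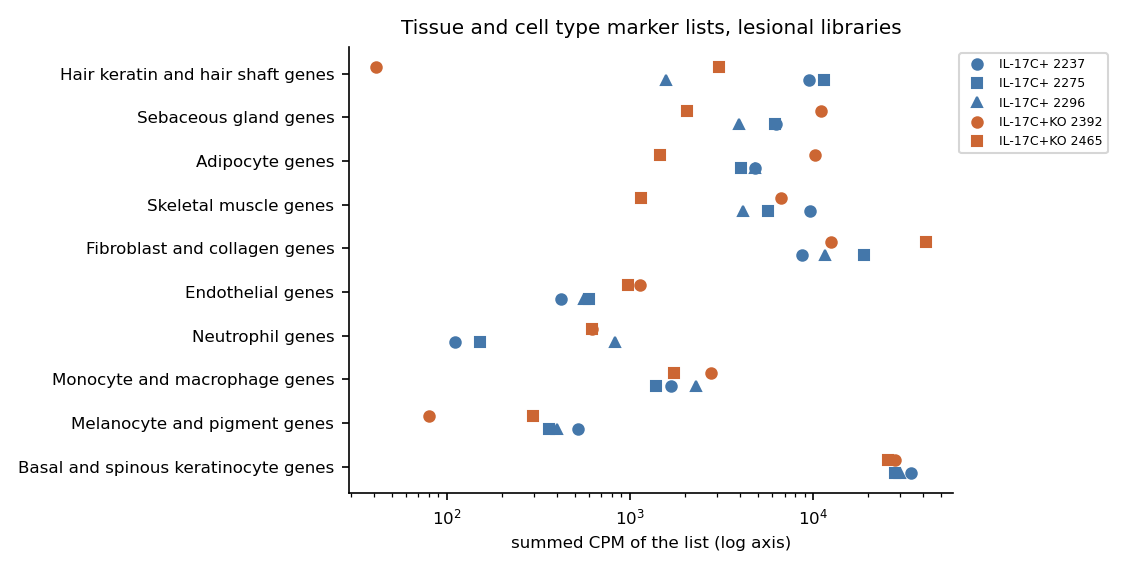
Summed CPM (log axis) of 10 tissue and cell type marker lists in each of the 5 lesional libraries, 1 point a library, with IL-17C+ mice in blue and IL-17C+KO mice in orange. The 2 IL-17C+KO libraries lie on opposite sides of the IL-17C+ libraries for adipocyte and sebaceous genes, while both lie above them for endothelial genes and below them for melanocyte genes.

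On the higher side of IL-17C+KO lesions, the smallest p-values belonged to genes that encode matrix and hyaluronan proteins, cytokine receptors and a chemokine. The rule that named 12 genes in each direction also required groups that do not overlap. Has1 (chromosome 17, 17843323 to 17855205), which makes hyaluronan, had 2.66, 2.95 and 2.25 CPM in IL-17C+ mice 2237, 2275 and 2296 and 33.6 and 33.9 CPM in IL-17C+KO mice 2392 and 2465. The 2 groups were 12.9-fold apart, a log2 difference of 3.69 ± 0.21 (edgeR, adjusted p = 0.069), and the 2 IL-17C+KO libraries were nearly equal. Tnfaip6 encodes TSG-6, a secreted protein that binds hyaluronan and is induced by TNF and IL-1. It had 17, 18.7 and 26 CPM against 125 and 116 CPM, a log2 difference of 2.55 ± 0.23 (adjusted p = 0.435). Mouse 2296 was the highest of the IL-17C+ mice for Tnfaip6. In DESeq2 Has1 and Tnfaip6 also led the genes named here, with adjusted p-values of 5.89e-42 and 1.1e-15.

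The 250 bases before the start of 5 genes are shown because these genes stand for the groups that follow: Has1 and Tnfaip6 for the matrix genes, Il6 for its family, Cxcl1 for the neutrophil chemokines and Sele for the endothelium. They are RefSeq sequences of GRCm38.p6 in the direction of the gene, at chr17:17855189-17855438 (minus strand), chr2:52037863-52038112, chr5:30012864-30013113, chr5:90890995-90891244 and chr1:164047984-164048233 (plus strand). Capitals mark matches, on either strand, to 3 motifs: the NF-kB consensus, the STAT site TTCNNNGAA and the AP-1 site TGANTCA.
Has1: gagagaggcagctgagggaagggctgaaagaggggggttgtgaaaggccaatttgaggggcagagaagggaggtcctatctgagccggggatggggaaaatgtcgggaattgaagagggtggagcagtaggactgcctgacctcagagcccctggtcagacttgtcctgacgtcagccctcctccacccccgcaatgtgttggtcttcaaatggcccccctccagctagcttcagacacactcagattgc
Tnfaip6: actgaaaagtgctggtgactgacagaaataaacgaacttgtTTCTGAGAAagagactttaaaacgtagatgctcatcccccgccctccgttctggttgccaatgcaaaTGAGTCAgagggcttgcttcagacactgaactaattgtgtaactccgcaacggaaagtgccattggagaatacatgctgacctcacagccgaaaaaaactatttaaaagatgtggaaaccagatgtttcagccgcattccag
Il6: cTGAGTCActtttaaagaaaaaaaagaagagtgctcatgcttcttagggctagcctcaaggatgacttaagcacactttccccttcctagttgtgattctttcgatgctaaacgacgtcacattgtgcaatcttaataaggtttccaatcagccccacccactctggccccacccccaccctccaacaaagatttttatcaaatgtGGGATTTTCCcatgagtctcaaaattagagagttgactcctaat
Cxcl1: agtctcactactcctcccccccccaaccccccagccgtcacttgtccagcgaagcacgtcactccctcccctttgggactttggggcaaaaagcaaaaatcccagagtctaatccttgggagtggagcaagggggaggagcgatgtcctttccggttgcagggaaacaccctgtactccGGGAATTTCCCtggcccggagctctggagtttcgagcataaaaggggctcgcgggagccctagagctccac
Sele: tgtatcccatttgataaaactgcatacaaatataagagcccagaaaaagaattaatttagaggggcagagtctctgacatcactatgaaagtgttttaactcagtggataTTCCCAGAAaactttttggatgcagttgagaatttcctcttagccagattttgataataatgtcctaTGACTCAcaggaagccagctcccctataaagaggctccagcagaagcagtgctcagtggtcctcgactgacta
Il6 and Cxcl1 held the NF-kB consensus, Cxcl1 as a stretch that matches on both strands. Tnfaip6 and Sele held TTCNNNGAA and TGANTCA each, and Il6 held TGANTCA. Among 11769 tested genes with a RefSeq promoter, the 250 bases held the NF-kB consensus in 8.74%, TTCNNNGAA in 6.16% and TGANTCA in 5.23%. Only 5 of the 12 higher genes had a promoter in the table. TTCNNNGAA was in 3 of these (Tnfaip6, Csf2rb2 and Tnfrsf1b), TGANTCA in 1 (Tnfaip6) and the NF-kB consensus in 0. Among the lower genes 7 of 12 had a promoter, with the NF-kB consensus in 1 (Wnt10b), TGANTCA in 1 (Ddit3) and TTCNNNGAA in 0. These are letter matches in short windows and show no binding.

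Among the other 10 genes chosen in this direction, the matrix proteases Adamts4 and Mmp19 followed. Adamts4, which cleaves aggrecan and versican, had 7.15, 11.3 and 7.96 CPM against 43.3 and 63.6 CPM, a log2 difference of 2.60 ± 0.29. Mmp19 had 26.9, 21.2 and 27.8 CPM against 76.1 and 72.9 CPM, a difference of 1.56 ± 0.18. As the rule required, both were above the IL-17C+ range in each IL-17C+KO library. Thbs1, thrombospondin 1 of the matrix and platelets, had 93.9, 153 and 98.2 CPM against 536 and 510 CPM (2.19 ± 0.27). Itga5, a subunit of the fibronectin receptor, differed by 1.28 ± 0.15 and Lama4, a laminin chain of vessel basement membranes, by 1.34 ± 0.18.

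Receptor genes made up the next group. Csf2rb, the chain shared by the receptors for GM-CSF, IL-3 and IL-5, had 25.5, 23.9 and 32.9 CPM against 93.2 and 77 CPM (1.63 ± 0.21). Its near-identical neighbour Csf2rb2 differed by 1.53 ± 0.18, and reads that fit both genes make the split between them uncertain. Tnfrsf1b, TNF receptor type II, had 21.8, 20.2 and 22.6 CPM against 53 and 46.5 CPM, a difference of 1.21 ± 0.16. Tmem173, which encodes the DNA-sensing adaptor STING, differed by 1.25 ± 0.16. Ccl7, a chemokine that draws monocytes, had 6.53, 13.6 and 13.9 CPM against 91 and 64.6 CPM, a difference of 2.78 ± 0.38. The 10 genes after Has1 and Tnfaip6 shared an adjusted p of 0.459, and DESeq2 called all 12 at an FDR of 0.05. All 12 were chosen by their small edgeR p in the same 5 libraries, so the DESeq2 calls are no separate support.

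Among the 12 genes chosen on the lower side were regulators of the cell cycle, of Notch and Wnt signalling and of stress responses. Cdkn2b, an inhibitor of cyclin-dependent kinases, had 28.9, 26.2 and 27.9 CPM in the IL-17C+ mice and 10.5 and 13.3 CPM in the IL-17C+KO mice, a log2 difference of -1.22 ± 0.19 (adjusted p = 0.5). Hes1, a target of Notch signalling, had 50.2, 63.4 and 52.8 CPM against 26.6 and 24.5 CPM (-1.12 ± 0.18). For both genes the 2 IL-17C+KO libraries were close to each other and, as the rule required, below all 3 IL-17C+ libraries. Tceal7 had the largest difference of the 12, -3.17 ± 0.53, from 96, 104 and 106 counts in the IL-17C+ libraries and 6 and 13 counts in the IL-17C+KO libraries. Wnt10b, a Wnt ligand of the hair follicle, had 7.83, 6.33 and 5.83 CPM against 2.37 and 1.97 CPM (-1.62 ± 0.29). Ddit3, the stress-induced transcription factor CHOP, had 22.3, 23 and 23.2 CPM against 6.83 and 10.7 CPM (-1.38 ± 0.25). In each of these the IL-17C+KO libraries were below every IL-17C+ library, which the rule also required.

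Further lower genes were Zfp866, a zinc finger gene (-1.64 ± 0.28), the epithelial serine protease Tmprss11e (-0.97 ± 0.17), Fam84a (-0.88 ± 0.17), the signalling adaptor Grb7 (-0.81 ± 0.16), Pdrg1 (-0.97 ± 0.19) and the p53 target Sesn1 (-0.86 ± 0.17). Adjusted p-values of the 12 lower genes were 0.5 to 0.555 in edgeR, and DESeq2 called all 12. They too were chosen by their small edgeR p in the same libraries, so these calls are no separate support.

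**Figure D2:**
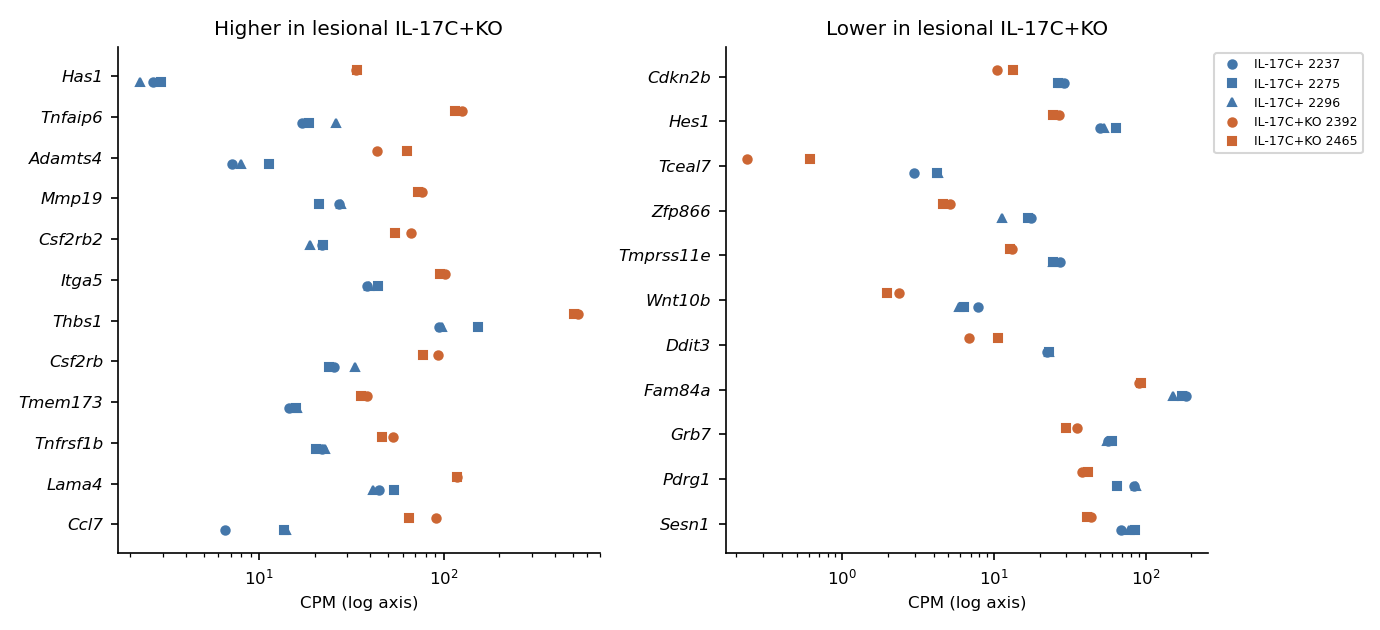
CPM (log axis) of 12 higher and 11 lower named genes, 1 point a lesional library, with IL-17C+ mice in blue and IL-17C+KO mice in orange. The groups do not overlap in any of these genes because the rule that chose them required it, and Has1 and Tceal7 show the widest gaps in their directions.

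The IL-6 family was higher at the level of its ligands. Of 7 tested ligands, 5 were higher in both IL-17C+KO libraries than in all IL-17C+ libraries (Il6, Lif, Clcf1, Il11 and Osm) and 1 was lower (Ctf1), and the median log2 difference was 1.45. It lay between 0.81 and 1.87 when any 1 mouse was left out. Lif, leukemia inhibitory factor, had 9.47, 11.6 and 6.15 CPM in IL-17C+ mice 2237, 2275 and 2296 and 26 and 52.5 CPM in IL-17C+KO mice 2392 and 2465, a difference of 2.11 ± 0.40 (adjusted p = 0.555). Clcf1, a ligand of the CNTF receptor, had 3.46, 4.2 and 6.55 CPM against 8.45 and 25.4 CPM (1.84 ± 0.53). Il11 had 65, 40 and 59 counts against 71 and 120 counts, or 2.01, 1.61 and 2.37 CPM against 2.8 and 5.64 CPM (1.07 ± 0.41). Mouse 2465 was the higher of the 2 IL-17C+KO mice for all 3. Osm, oncostatin M of neutrophils and T cells, had 1.02, 3.43 and 16.4 CPM against 17.5 and 20.5 CPM (1.45 ± 1.04). IL-17C+ mouse 2296 was close to the IL-17C+KO mice for this gene and far from the other two, so the groups were hardly apart. Ctf1, cardiotrophin 1, had 6.53, 6.66 and 5.95 CPM against 4.18 and 4.23 CPM (-0.60 ± 0.23). Ebi3, a subunit of IL-27, overlapped between groups (0.22 ± 0.35). Cntf, Il27 and Il31 were below the filter on low counts.

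Receptor chains of the family differed less than the ligands. Of 8 tested chains 3 were higher without overlap and 0 lower, with a median of 0.35. Osmr, the oncostatin M receptor, had 59, 49.4 and 57.7 CPM against 104 and 94 CPM, a difference of 0.84 ± 0.16 (adjusted p = 0.555, called by DESeq2 with an adjusted p of 0.00787). Il6st, the shared chain gp130, had 143, 156 and 119 CPM against 296 and 207 CPM (0.85 ± 0.23). Il27ra had 1.67, 2.18 and 1.61 CPM against 3.2 and 2.3 CPM (0.60 ± 0.34), with the lower IL-17C+KO value only slightly above the highest IL-17C+ value. The ligand-binding chain of IL-6 itself, Il6ra, had 27.1, 17 and 10.8 CPM against 31.2 and 15.5 CPM (0.35 ± 0.48), so its groups overlapped. Cntfr (-0.84 ± 0.64), Il11ra1 (0.11 ± 0.18) and Lifr (0.09 ± 0.17) overlapped as well. Il31ra was below the filter.

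Genes of the STAT3 pathway and its feedback followed the same side. Of 17 tested genes 8 were higher without overlap and 0 lower, with a median of 0.48, and 6 had an unadjusted p under 0.05 (2 to 7 when 1 mouse was left out). Socs3, the feedback inhibitor of the pathway, had 52, 97.6 and 103 CPM against 152 and 293 CPM, a difference of 1.40 ± 0.41 (adjusted p = 0.582). Jak2, a kinase of gp130 receptors, had 46.4, 49.3 and 43.5 CPM against 70.6 and 84.9 CPM (0.74 ± 0.16). Fgl2 differed by 1.10 ± 0.25 and Bcl3, an atypical member of the IkB family, by 0.67 ± 0.21. Stat3 itself, named here beyond the rule, had 258, 228 and 263 CPM against 350 and 360 CPM (0.51 ± 0.16). DESeq2 called Jak2 and Fgl2 of these 17 genes.

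**Figure D3:**
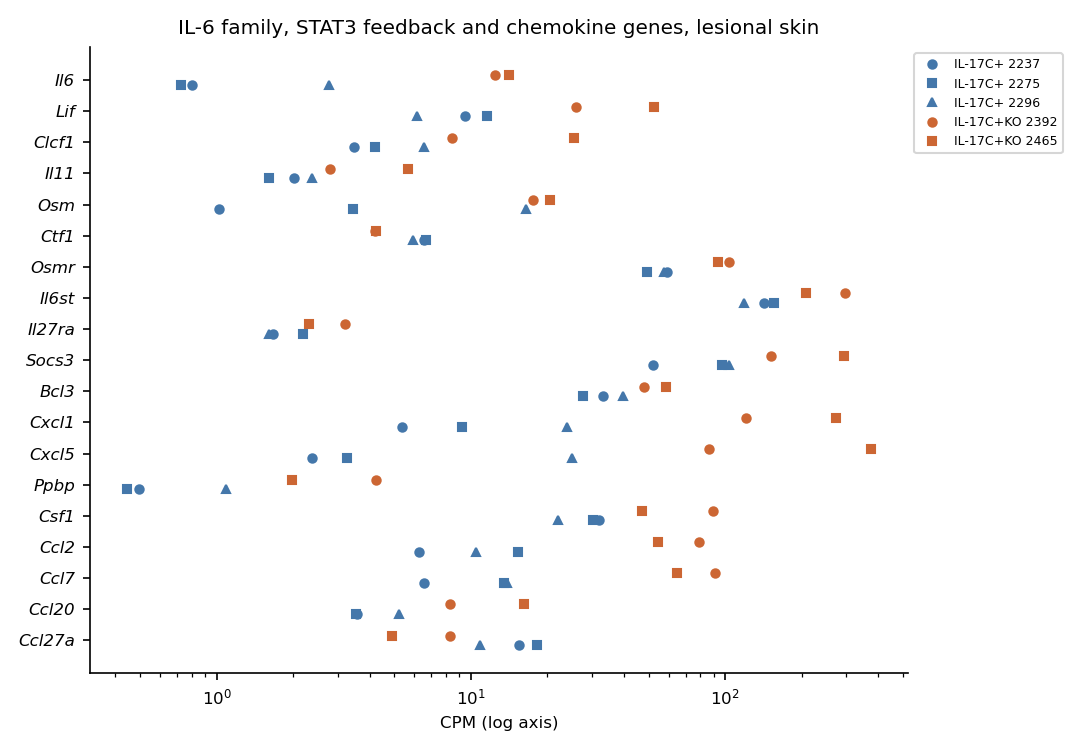
CPM (log axis) of IL-6 family ligands and receptor chains, STAT3 feedback genes and chemokines in the 5 lesional libraries, 1 point a library, with IL-17C+ mice in blue and IL-17C+KO mice in orange. These genes were picked after their values were seen, from those whose groups do not overlap. Ctf1 and Ccl27a lie lower in the IL-17C+KO libraries and the others higher, with IL-17C+ mouse 2296 nearest to the IL-17C+KO mice for Osm.

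One list held chemokines that draw neutrophils through the receptor CXCR2, together with Pf4 and the colony-stimulating factors Csf1, Csf2 and Csf3. It had the highest median of all 39 lists, 2.2 over 9 genes (1.56 to 3.76 leaving out 1 mouse). All 9 genes were above 0, 6 were higher without overlap and 0 lower. Cxcl1 (chromosome 5, 90891241 to 90893115) had 5.35, 9.2 and 23.8 CPM in IL-17C+ mice 2237, 2275 and 2296 and 121 and 274 CPM in IL-17C+KO mice 2392 and 2465, a difference of 3.95 ± 0.72 (edgeR, adjusted p = 0.555). Cxcl5 had 2.38, 3.27 and 25 CPM against 86.2 and 374 CPM (4.50 ± 1.25). Pooled over mice, this was 10138 against 779 counts, a ratio per total count of 22.5 with a 95% counting interval of 20.9 to 24.2. Mouse 2465 carried most of the Cxcl5 counts, and that interval does not include the spread between mice. Ppbp had 16, 11 and 27 counts against 107 and 42 counts (2.2 ± 0.57). The other chemokines of the list overlapped between groups: Cxcl2 had 1.08, 9.8 and 130 CPM against 71.2 and 138 CPM (1.16 ± 1.64), Cxcl3 1.08, 2.87 and 42.4 CPM against 22.1 and 31.9 CPM (0.81 ± 1.43), and Pf4 differed by 1.29 ± 0.61. For Cxcl2 and Cxcl3 the IL-17C+ mouse 2296 was as high as the IL-17C+KO mice.

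The colony-stimulating factors were higher without overlap in all 3 cases. Csf1, the macrophage growth factor, had 32, 30.3 and 22 CPM against 89.7 and 47.3 CPM (1.29 ± 0.32). Csf3, the neutrophil growth factor, had 0.124, 1.13 and 6.67 CPM against 38.8 and 30.7 CPM (3.73 ± 1.28). Csf2, which encodes GM-CSF, was scarce, with 8, 5 and 10 counts against 17 and 54 counts. Its pooled ratio per total count was 5.33 with a 95% counting interval of 3.29 to 8.93. DESeq2 called only Cxcl1 of the 9 genes.

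CC chemokines split by gene. Of 18 tested, 7 were higher without overlap (Ccl2, Ccl7, Ccl11, Ccl12, Ccl19, Ccl20 and Ccl24) and 2 lower (Ccl25 and Ccl27a), with a median of 1.10. Without IL-17C+KO mouse 2392 the median was -0.16, so it rests on that mouse. Ccl2, the main monocyte chemokine, had 6.28, 15.3 and 10.5 CPM against 78.8 and 54.6 CPM, a difference of 2.64 ± 0.40 (edgeR, adjusted p = 0.5). Ccl20, which draws CCR6-bearing cells and is induced by IL-17 cytokines in keratinocytes, had 3.56, 3.55 and 5.23 CPM against 8.25 and 16.2 CPM (1.57 ± 0.38). Ccl19, a ligand of CCR7, had 23.9, 16.9 and 20.6 CPM against 58 and 34.2 CPM (1.17 ± 0.28). Ccl27a, a keratinocyte chemokine for skin-homing T cells, had 15.4, 18.2 and 10.8 CPM against 8.25 and 4.89 CPM (-1.17 ± 0.36). Ccl25 had 53, 39 and 64 counts against 28 and 23 counts. Of the other CXC, XC and CX3C chemokines, 1 of 8 was higher without overlap and 0 lower (median 0.26), a share near that of all genes. The higher one was the stromal chemokine Cxcl12, with 165, 177 and 208 CPM against 398 and 316 CPM (0.96 ± 0.20).

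Genes of TNF and NF-kB signalling were higher in most of their number. Of 19 tested, 14 were higher without overlap and 1 lower (Ripk2, -0.41 ± 0.22), with a median of 0.50 that stayed between 0.47 and 0.56 without any 1 mouse. The unadjusted p was under 0.05 for 10 genes (5 to 11 leaving out 1 mouse), and DESeq2 called 5. The adhesion molecule Icam1 had 35.7, 35.1 and 51.4 CPM against 84.9 and 81.4 CPM (1.03 ± 0.22). Tnfaip3, which encodes the NF-kB inhibitor A20, had 19.8, 30.5 and 22.4 CPM against 58.7 and 288 CPM (2.84 ± 0.65), with most of the excess in mouse 2465. Tnfaip2 differed by 0.96 ± 0.22.

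Other cytokine groups had medians nearer to 0 than the CXCR2 and CC chemokine lists. Of 17 genes of the IL-1, IL-36, IL-33 and IL-18 list, 3 were higher without overlap and 0 lower (median 0.13). Il1r1, the signalling receptor of IL-1, led them with 48.7, 53.5 and 68.8 CPM against 156 and 139 CPM (1.37 ± 0.20, adjusted p = 0.5), and Il18bp, the decoy of IL-18, followed (1.29 ± 0.43). Of 13 genes of the IL-17 and IL-23 axis, 3 were higher and 1 lower without overlap (median 0.13). Il17ra, a chain of the IL-17C receptor, had 29.8, 32.8 and 26.4 CPM against 61 and 46.4 CPM (0.86 ± 0.20). Nfkbiz, a mediator of IL-17 responses in keratinocytes, had 103, 113 and 99.8 CPM against 153 and 334 CPM (1.21 ± 0.34), and Zc3h12a, an RNase that limits them, differed by 0.41 ± 0.17. Il23a was high only in mouse 2465, with 3.37, 2.82 and 4.14 CPM against 1.85 and 20.7 CPM, and its difference of 1.71 ± 0.90 became -0.91 without that mouse. Il17a, Il17f and Il12b were below the filter.

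In the IL-10 and IL-20 list 3 of 10 genes were higher without overlap and 0 lower (median 0.31). Il10 had 17, 6 and 17 counts against 25 and 51 counts, Il10ra differed by 0.75 ± 0.23, and Il24 had 0.433, 2.06 and 6.92 CPM against 9.35 and 33.3 CPM (2.77 ± 1.10). Il19 overlapped between groups (1.78 ± 1.17). In the list of TSLP and type 2 cytokine genes, 2 of 10 were higher and 0 lower without overlap (median 0.36). They were the receptor genes Il4ra, with 87.7, 86.3 and 139 CPM against 332 and 231 CPM (1.43 ± 0.30), and Il13ra2 (1.92 ± 0.66).

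Matrix remodelling genes held the most DESeq2 calls of any list. Of 26 tested, 12 were higher without overlap and 0 lower, DESeq2 called 10 higher (Has1, Has2, Adamts1, Adamts4, Adamts5, Mmp3, Mmp19, Timp1 and Ptgs2 among them), and the median was 1.31 (0.74 to 1.6 leaving out 1 mouse). The unadjusted p was under 0.05 for 10 genes, and 9 to 16 without any 1 mouse. Adamts1, a protease of versican, had 49.1, 65.3 and 33.5 CPM against 148 and 316 CPM (2.24 ± 0.42). Ptgs2, the inducible cyclooxygenase that makes prostaglandins, had 5.72, 15.7 and 22.2 CPM against 50.8 and 142 CPM (2.73 ± 0.67). In the prostaglandin list, where it also stands, 6 of 19 genes were higher and 1 lower without overlap (median 0.37). The lower one, the prostaglandin D synthase Ptgds, had 27, 18.9 and 21.8 CPM against 4.03 and 8.6 CPM (-1.84 ± 0.39).

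Endothelial genes were higher in both IL-17C+KO mice. Of 20 tested, all 20 had a difference above 0, 14 were higher without overlap and 0 lower, and the median was 0.86 (0.73 to 1.02 leaving out 1 mouse). Summed over the list they came to 423, 600 and 565 CPM in IL-17C+ mice 2237, 2275 and 2296 and 1138 and 977 CPM in the IL-17C+KO mice. The unadjusted p was under 0.05 for 10 genes (6 to 11 leaving out 1 mouse). The inflammatory adhesion molecules Sele and Selp, which catch rolling leukocytes, had the largest values. Sele, E-selectin, had 7.52, 7.75 and 15.1 CPM against 46.8 and 75.5 CPM (2.60 ± 0.40, adjusted p = 0.5). Selp, P-selectin, had 10.6, 14.5 and 27.3 CPM against 107 and 106 CPM (2.60 ± 0.41). Cdh5, the cadherin of endothelial junctions, differed by 1.22 ± 0.24 and Eng, endoglin, by 0.97 ± 0.21. Both selectins thus differed by more than Cdh5 and Eng, and all of these genes were chosen by their small p within the list.

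Fibroblast and collagen genes were above 0 in all 24 cases, with 8 higher without overlap, 0 lower and a median of 1.09. Mouse 2465 gave most of this, since without it the median was 0.09, and without mouse 2392 it was 1.70. Pdgfra, the receptor that marks dermal fibroblasts, had 63.9, 81.9 and 89.7 CPM against 179 and 258 CPM (1.48 ± 0.24, adjusted p = 0.5). Col5a3 (1.50 ± 0.39), Pdgfrb (1.27 ± 0.39) and Loxl1 (1.03 ± 0.33) followed.

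Among leukocyte lists, monocyte and macrophage genes had 5 of 23 higher without overlap, 0 lower and a median of 0.67 (0.15 without mouse 2392). Marco, a scavenger receptor of macrophages, had 1, 3 and 2 counts in the IL-17C+ libraries and 54 and 26 counts in the IL-17C+KO libraries, a ratio per total count of 23.0 with a 95% counting interval of 10.1 to 64.6. Msr1, another scavenger receptor, had 6.37, 5.49 and 15.2 CPM against 42.5 and 23.6 CPM (1.88 ± 0.52). Csf1r, the receptor for the product of Csf1, differed by 0.91 ± 0.26 and Fcgr1 by 1.61 ± 0.54. All 4 were higher in mouse 2392 than in mouse 2465. Dendritic and Langerhans cell genes had 7 of 18 higher without overlap and 0 lower (median 0.36). Ccr7, which guides mature dendritic cells and T cells to lymph nodes, had 50, 41 and 30 counts against 127 and 79 counts (1.57 ± 0.32). Irf8 differed by 1.12 ± 0.30 and Flt3 by 0.83 ± 0.29, and Siglech, of plasmacytoid dendritic cells, had 8, 6 and 9 counts against 18 and 34 counts.

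Neutrophil genes had 4 of 18 higher and 1 lower without overlap. Their median of 0.73 was 2.74 without IL-17C+ mouse 2296, whose lesion had the highest summed level, and 0.20 without mouse 2237. Itgam, which encodes CD11b, had 25.3, 21 and 43 CPM against 156 and 66.8 CPM (1.91 ± 0.47). Mmp25 had 41, 29 and 40 counts against 67 and 102 counts. The receptor Csf3r had 3.68, 9.04 and 24.8 CPM against 30.7 and 43.5 CPM (1.57 ± 0.75), a wide error because of mouse 2296. The granule gene Mpo went the other way, with 11, 10 and 37 counts against 6 and 1 counts.

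T and NK cell genes had 3 higher and 3 lower of 19 without overlap (median -0.27), shares near those of all genes. Gzmb had 16, 9 and 12 counts against 25 and 24 counts and Ctla4 40, 20 and 27 against 57 and 46, while Zap70 had 53, 51 and 33 against 22 and 5. These genes were all at low counts, and the list showed no common side. Of 6 tested B and plasma cell genes 1 was higher (Cd79b, 15, 6 and 4 counts against 24 and 19) and 1 lower (Blk, 93, 35 and 21 counts against 14 and 9). In the mast cell and eosinophil list 1 of 10 genes was lower without overlap, Fcer1a, the alpha chain of the IgE receptor. It had 311, 219 and 1338 counts in the IL-17C+ mice and 72 and 62 in the IL-17C+KO mice (-3.06 ± 0.99), and DESeq2 called it.

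Complement genes had 5 of 16 higher and 1 lower without overlap (median 0.82, and 0.11 without mouse 2392). C1ra had 54.3, 55 and 58.4 CPM against 141 and 90.9 CPM (1.05 ± 0.22), C5ar1, the receptor for C5a, differed by 1.59 ± 0.40, and the inhibitor Serping1 by 0.91 ± 0.23. Cfb had 49.8, 38.2 and 72.3 CPM against 274 and 88.7 CPM (1.76 ± 0.52). For all of them mouse 2392 was the higher of the 2. Interferon-stimulated genes had 3 of 24 higher and 0 lower without overlap (median 0.50, and 0.04 without mouse 2392), a share near that of all genes. The smallest p-values among them were those of the RNA sensors Oas3 (1.30 ± 0.30) and Oas2 (1.43 ± 0.44).

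Keratinocyte lists differed among themselves. Of 20 stress and wound genes 5 were higher without overlap and 0 lower (median 0.49): the AP-1 subunit Fosl1 had 76, 40 and 46 counts against 116 and 299 counts (2.26 ± 0.52), and the EGF receptor ligands Epgn (0.86 ± 0.21) and Hbegf (1.78 ± 0.55) followed. Of 26 cornified envelope genes 0 were higher and 1 was lower (median -0.23), and of 34 S phase and mitosis genes 2 were higher and 0 lower (median 0.15; Mcm3 0.47 ± 0.15). Basal and spinous genes went both ways, with 3 of 20 higher and 5 lower (median 0.01). Itga6, the integrin of hemidesmosomes, had 215, 236 and 223 CPM against 305 and 346 CPM (0.53 ± 0.16), and Krt15, a keratin of basal and bulge cells, had 274, 437 and 211 CPM against 138 and 187 CPM (-0.92 ± 0.36). Barrier lipid genes had 2 of 12 higher and 0 lower (median 0.15).

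Antimicrobial, S100 and acute phase genes, which IL-17 cytokines induce in keratinocytes, had 3 of 26 higher and 2 lower without overlap (median 0.34). Neither share was above that of all genes (13.3% higher and 11.5% lower). Ltf, lactoferrin, had 13, 24 and 60 counts against 123 and 442 counts (3.35 ± 0.91), while S100a7a, psoriasin, had 22.6, 24.1 and 27.4 CPM against 8.92 and 14.5 CPM (-1.08 ± 0.27). Without IL-17C+ mouse 2296 the median of the list was 1.39. Chil3 differed by 2.29 ± 1.02 and the beta-defensin Defb6 by -0.64 ± 0.34.

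AP-1 and immediate early genes, which respond within minutes to growth factors and to handling of tissue, had 5 of 21 higher and 0 lower without overlap (median 0.75). Nr4a3 had 4.7, 3.51 and 3.9 CPM against 12.6 and 34.3 CPM (2.53 ± 0.45), and Nr4a1 had 32.4, 111 and 25.2 CPM against 139 and 690 CPM (2.88 ± 0.91). Mouse 2465 was the high one, and without it the median was -0.13. Heat shock and stress genes had 2 of 14 higher and 4 lower (median -0.29), among them Hmox1 (0.96 ± 0.30) and Hspb1 (-0.71 ± 0.22). Glycolysis and hypoxia genes had 5 of 22 higher and 1 lower (median 0.11), led by adrenomedullin (Adm, 2.13 ± 0.53), which mouse 2392 carried with 67 CPM against 18.4 CPM in mouse 2465.

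**Figure D4:**
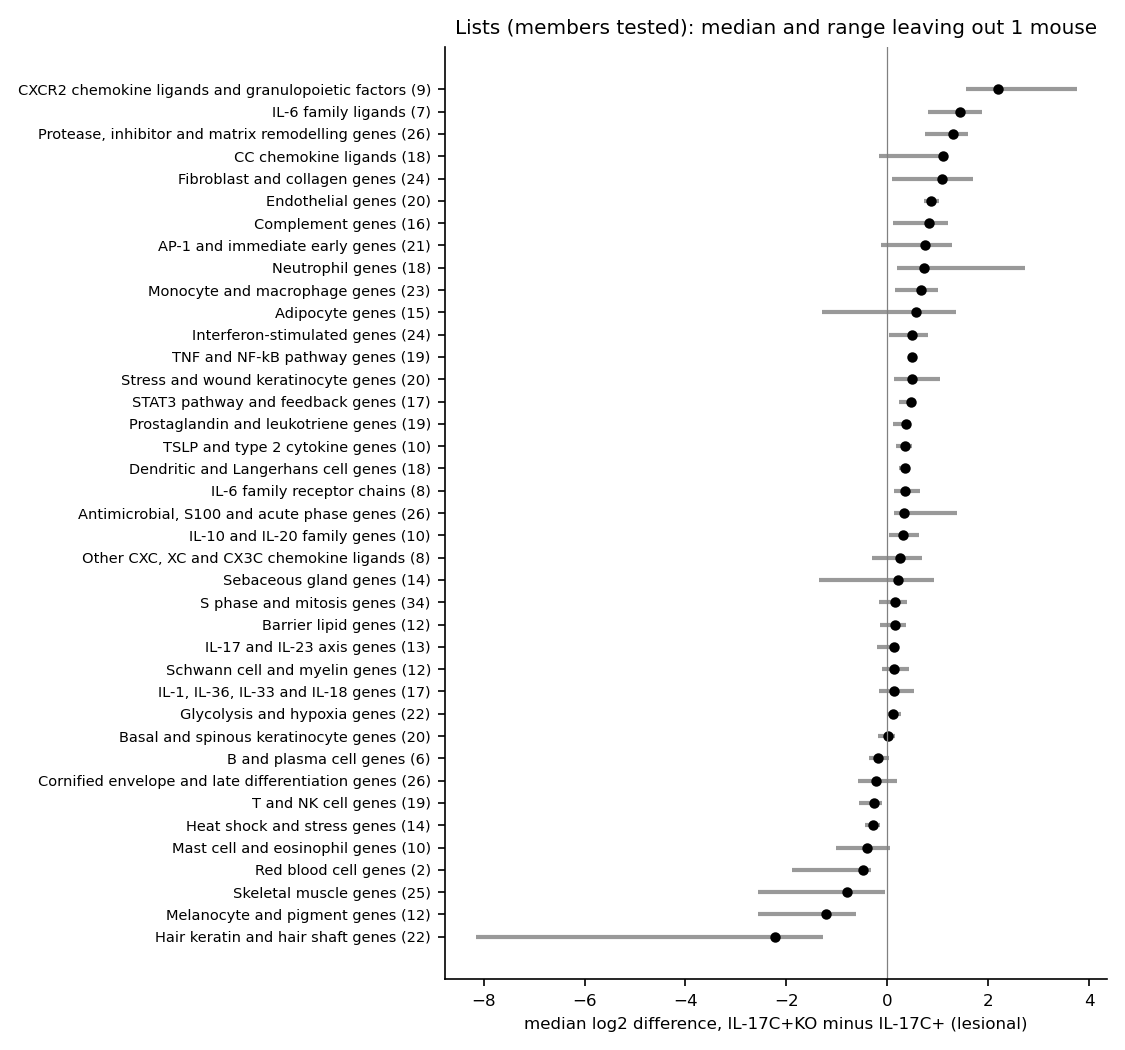
Median log2 difference (IL-17C+KO minus IL-17C+, lesional skin) of the tested members of 39 gene lists, with their number in parentheses. Dots are the medians with all 5 mice and bars run from the lowest to the highest median when 1 mouse is left out. The bars of the TNF and NF-kB, endothelial and matrix lists stay above 0, while those of the adipocyte, sebaceous and CC chemokine lists cross it.

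Of the 39 lists 30 had a median above 0, and the lowest medians belonged to hair, pigment and muscle genes. Of 12 melanocyte genes 9 were lower without overlap and 0 higher, with a median of -1.22 (-2.56 without mouse 2465 and -0.61 without mouse 2392). Trpm1, a channel of melanocytes, had 40.2, 22.4 and 13.1 CPM in the IL-17C+ mice and 1.54 and 6.91 CPM in the IL-17C+KO mice (-2.58 ± 0.81, DESeq2 adjusted p = 0.0289). Oca2, of the melanosome, had 338, 146 and 82 counts against 1 and 28 counts. Gpr143, another melanosomal protein, had 79, 36 and 22 counts against 0 and 7 counts, and the pooled level was 11.3 times higher in IL-17C+ mice, with a 95% counting interval of 5.36 to 28.7. Mlana had 18.9, 11.8 and 12.4 CPM against 0.908 and 6.96 CPM (-1.88 ± 0.83). Mouse 2392 was the lowest in each of these. Hair shaft genes were low in that mouse too: their summed level was 41.3 CPM in mouse 2392 and 3082 CPM in mouse 2465, against 9546, 11450 and 1567 CPM. All 22 hair genes were below 0 (median -2.22), but only Msx2, a transcription factor of the hair matrix, was without overlap (44, 49.3 and 13.7 CPM against 2.64 and 13 CPM). The hair median ran from -8.16 without mouse 2465 to -1.28 without mouse 2392, and the part of the hair cycle in the pigment genes was not tested.

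Skeletal muscle genes were below 0 in all 25 cases, with 4 lower without overlap and a median of -0.79. Myoglobin (Mb) had 87.8, 74 and 161 CPM against 50 and 34.3 CPM (-1.35 ± 0.41). Without mouse 2465, whose summed muscle level was 1145 CPM against 4128 to 9606 CPM in the IL-17C+ mice, the median was -0.04. Adipocyte and sebaceous genes had 0 members without overlap in either direction, and the same held for Schwann cell genes and the 2 tested red blood cell genes.

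Uninvolved skin of the same mice was compared in the same way. In it 0 of 15568 genes (0%) passed an FDR of 0.05 in edgeR, 581 had an unadjusted p under 0.05, and DESeq2 called 11. Il6 differed by 3.25 in uninvolved skin, nearly as in lesional skin. Has1 (1.95 against 3.69 in lesions), Thbs1 (1.32 against 2.19) and Selp (1.63 against 2.60) were also on the same side there. Cxcl1 (0.16), Ccl7 (0.21), Ccl2 (0.40), Mmp19 (0.12) and Il1r1 (-0.03) were nearer to 0 in uninvolved skin than in lesions. Socs3 (-0.25), Lif (-0.31), Clcf1 (-0.25) and Il11 (-0.44) were slightly below 0 there, and Ptgs2 was at -0.53. Apart from Il6, these genes were chosen by their lesional p. That choice favours large lesional values, so smaller values in uninvolved skin do not show that a difference is particular to lesions. Among the lower genes Wnt10b (-0.19) was near 0 in uninvolved skin, Cdkn2b (-0.86), Zfp866 (-0.78) and Ddit3 (-1.0) were on the same side, and Tceal7 was on the other (1.02).

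List medians in uninvolved skin were close to those in lesions for endothelial genes (0.91 against 0.86 in lesions), TNF and NF-kB genes (0.46 against 0.50), complement genes (0.81 against 0.82) and interferon-stimulated genes (0.44 against 0.50). For the list of CXCR2 chemokines, Pf4 and colony-stimulating factors the median was 0.27 in uninvolved skin, where only 5 of the 9 genes were tested. For IL-6 family ligands it was 0.05 and for matrix remodelling genes 0.25. All of these were below their lesional values. Hair genes (-6.41) and melanocyte genes (-2.54) were further below 0 in uninvolved skin than in lesions. Skeletal muscle genes were on opposite sides, at 1.24 in uninvolved skin and -0.79 in lesions. So were antimicrobial, S100 and acute phase genes (-0.81 against 0.34 in lesions) and stress and wound keratinocyte genes (-0.46 against 0.49). The median of S phase and mitosis genes also changed sides (-0.91 against 0.15), as did those of some lists nearer to 0, such as the IL-1 list (-0.24 against 0.13). The differences between these medians were not tested.

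The difference between both kinds of skin was tested as an interaction of genotype and skin with the mouse as a block. In edgeR 0 of 16083 genes (0%) passed an FDR of 0.05, and 188 had an unadjusted p under 0.05. DESeq2 called 6 genes: Ccl2, Ccl7, Cxcl1 and Cxcl5, whose lesional minus uninvolved difference was higher in IL-17C+KO mice, and Tceal7 and the muscle gene Csrp3, for which it was lower. For Tceal7 this difference was -0.71, -2.73 and -2.17 log2 units in IL-17C+ mice 2237, 2275 and 2296. It was -7.04 and -5.40 in IL-17C+KO mice 2392 and 2465, a larger fall in lesions. In edgeR the interaction of Ccl2 was 2.34 ± 0.40, that of Ccl7 2.63 ± 0.52, of Cxcl1 4.05 ± 1.0 and of Cxcl5 6.01 ± 1.08 (SE), each with an adjusted p of 1. The lesional minus uninvolved difference of Ccl2 was 0.89, 1.51 and 1.20 log2 units in IL-17C+ mice 2237, 2275 and 2296 and 3.37 and 3.70 in IL-17C+KO mice 2392 and 2465. Both IL-17C+KO mice were thus above all IL-17C+ mice, but Ccl2 had the smallest edgeR interaction p of all genes tested. These chemokines are named for their interaction in the same libraries, so the separation is no separate support. Of the matrix genes, Tnfaip6 had an interaction of 1.82 ± 0.43, Mmp19 of 1.42 ± 0.38 and Has1 of 2.02 ± 1.04. Il1r1 came to 1.40 ± 0.37. These matrix genes and Il1r1 were chosen by their lesional p, which favours large interactions. For Il6 (0.17 ± 0.85) and Csf2rb2 (0.29 ± 0.57) the interaction was smaller than its error.

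**Figure D5:**
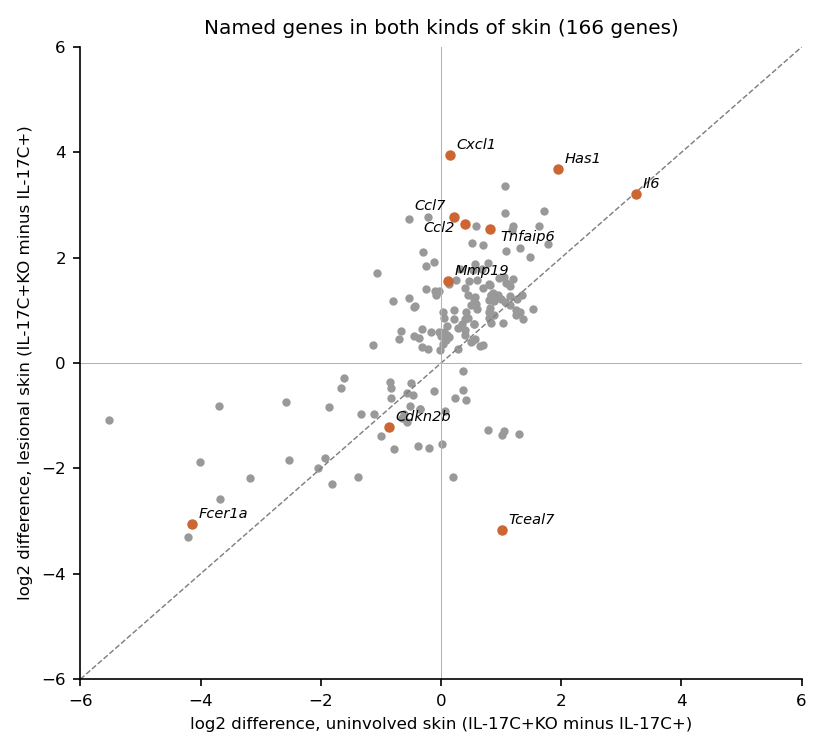
Log2 difference (IL-17C+KO minus IL-17C+) in lesional skin against that in uninvolved skin for the 166 genes of the naming rule that were tested in both. The dashed line marks equal differences. Apart from Il6 and Il17c, the rule chose genes by their lesional p, which favours large lesional values. Il6 lies near the line, Cxcl1, Ccl2, Ccl7 and Mmp19 lie near 0 in uninvolved skin and above 0 in lesions, and Tceal7 has opposite signs.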

How the data were processed

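RNA of lesional and uninvolved dorsal skin from 5 mice was sequenced in 10 libraries. Per the submitters' processing notes, the tools were Cufflinks 2.2.1, HTSeq with no version, TopHat2 2.0.12 and cutadapt 1.6, on mm10. Order, settings, strand handling and annotation are absent from those notes. Per the file headers, each deposited table holds a count and an FPKM value per gene symbol (24358 symbols). Count values as deposited are integers whose total varies by library, and they were used as raw counts. The deposited FPKM values, scaled by the authors to length and depth, served only an alternative fit. Overlapping genes and near-identical copies are uncertain.

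Groups came from the labels. The main fit used edgeR 4.0.16 under R 4.3.3 (filterByExpr by group, TMM, robust quasi-likelihood fit) over 15691 genes of the 5 lesional libraries, with Benjamini-Hochberg adjustment over all of them. Standard errors were taken from the log2 difference and its F statistic, and for genes with few counts they depend on the prior count. The same fit was made in uninvolved skin, and the interaction fit took all 10 libraries and a block for each mouse, since the design text ties both biopsies to a mouse. The correlation of both biopsies of a mouse, estimated over all genes, was -0.119. DESeq2 1.42.0, limma 3.58.1, other scalings and filters and leaving out each mouse were alternatives. Nothing beyond the mouse number says how the samples were collected or batched, so p-values measure the spread between these mice. Counting intervals are exact (Clopper-Pearson, 95%) and cover counting error only, and a count of 0 leaves room for up to 3 counts, or 0.0965 to 0.14 CPM in the lesional libraries. Rn45s took 1.19 to 2.25% of the lesional counts.

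The genes, the 39 lists and the rule for naming genes were chosen with earlier results of these data known. The rule names Il6 and Il17c, then the 12 genes with the smallest p in each direction (established symbol, mean CPM of 2 or more, groups that do not overlap), then up to 4 genes with the smallest p in each list and all IL-6 family ligands and receptor chains. Of these, the text leaves out members that add nothing to their list's counts, and a few items are not reported here. Coordinates are from GENCODE M21 (GRCm38), in which 15117 of the tested symbols have a single position. Of the fits, only the lesional edgeR fit was also run on simulated counts with genes changed by known folds. Its outcome is not reported here.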

Additional observations from a re-analysis of the deposited data

How the results depend on the processing

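The lesional comparison gave 0 genes past an FDR of 0.05 in edgeR and in every alternative except DESeq2 (213 genes), no filter on low counts (1 gene, Has1, adjusted p = 0.0335) and upper quartile scaling (1 gene, Has1, adjusted p = 0.0484). It gave 0 genes with any 1 mouse left out. The uninvolved comparison gave 11 genes with DESeq2 and 0 to 241 leaving out 1 mouse, with the 241 coming without IL-17C+ mouse 2275. The interaction gave 6 genes with DESeq2 and 0 otherwise, leaving out any 1 mouse included; the cause of these differences between tools was not tested. The lesional groups share no mouse, so no paired fit of that difference was possible. With all 10 libraries in the fit it gave 0 genes with the mouse as a random block and 0 without it, and the interaction without the block gave 0.

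Of 2266 values of 134 named genes under up to 17 alternatives, 2261 kept their direction, which the choice of genes largely fixes, since groups that do not overlap cannot change sides when 1 mouse is left out. The other 5 came from leaving out 1 IL-17C+KO mouse: Ebi3 (-0.06), Il11ra1 (-0.03) and Il23a (-0.91) without mouse 2465, and Il6ra (-0.24) and Lifr (-0.03) without mouse 2392. Leaving out 1 mouse, Ebi3 ranged from -0.06 to 0.44, Il6ra from -0.24 to 0.75, Il11ra1 from -0.03 to 0.21, Lifr from -0.03 to 0.18 and Il23a from -0.91 to 2.58. Of 663 list medians under alternatives, 624 moved by less than the spread between libraries.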

Other observations

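Genes were also looked for that separated the labels in all 10 libraries, and the genes named here were chosen after their values were seen. With 4 libraries labelled IL-17C+KO and 6 labelled IL-17C+, 207 of the 15691 tested genes (1.32%) were higher in every IL-17C+KO library and 263 (1.68%) were lower. The 2 biopsies of a mouse are not independent, and no test was made. Abhd1, which lies 937 kb from the start of Il6 (chromosome 5, 30950066 to 30955091), had 3, 0 and 1 counts in the lesional IL-17C+ libraries (mice 2237, 2275 and 2296) and 62 and 20 in the lesional IL-17C+KO libraries (mice 2392 and 2465). In uninvolved skin it had 3, 0 and 3 counts against 57 and 56. The pooled lesional ratio per total count was 35.4, with a 95% counting interval of 13.3 to 133. On the lower side, Mug1 had 66, 14 and 8 counts against 3 and 0 in lesions and 177, 69 and 183 against 7 and 3 in uninvolved skin. Mycn had 404, 234 and 67 counts against 9 and 17 in lesions and 416, 28 and 34 against 11 and 11 in uninvolved skin. Fcer1a, lower in IL-17C+KO lesions, had 186, 87 and 224 counts against 16 and 3 in uninvolved skin.

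Around Il6, 4 windows were looked at. Within 2 Mb of its start 12 of 48 tested genes (25%) were higher without overlap in IL-17C+KO lesions, within 5 Mb 19 of 92 (20.7%), within 10 Mb 36 of 179 (20.1%) and within 20 Mb 40 of 220 (18.2%), against 13.3% of all genes. Lower genes made up 10.4%, 9.78%, 9.5% and 10.5% of these windows, against 11.5% of all genes.

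Zinc finger genes with a symbol of Zfp and a number were mostly on the lower side. Of 341 tested, 149 (43.7%) were lower without overlap in IL-17C+KO lesions and 16 (4.69%) higher, with a median log2 difference of -0.33 in lesional and -0.34 in uninvolved skin. In all 10 libraries 53 (15.5%) were lower and 2 (0.587%) higher. Their mean log2 CPM was 2.93, 2.93 and 2.87 in the lesional IL-17C+ libraries and 2.57 and 2.60 in the lesional IL-17C+KO libraries, while that of all tested genes was 3.98, 3.98 and 3.94 against 3.93 and 3.93. In uninvolved skin it was 3.07, 3.05 and 2.88 against 2.62 and 2.90, so there the groups overlapped. Reads of these related genes can be shared between copies, and the part of that was not tested.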
